A study of Mus musculus with 45 samples.

Results

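The genes described here are Ovgp1, Dcpp1, Dcpp2, Dcpp3 and BC048546, 5 of the 24422 genes counted in uterine tissue of WT and Plag1 knockout (KO) mice. They were taken from the table by symbol, and the symbols themselves had been chosen by their counts in scraped endometrium of these same libraries. Their levels and their differences between tissues are therefore a description and carry no test. Most of the counts of all 5 genes lay in a single library, the endometrium of WT mouse 8. Beyond that library Ovgp1 was present in nearly all samples, with at most 264 counts in a sample. BC048546 had at most 17 counts in a sample and the Dcpp genes at most 4.

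Ovgp1 encodes oviductin, a large glycoprotein that secretory cells of the oviduct epithelium release into the lumen and that binds the zona pellucida of the ovulated oocyte. It is known as a product of the estrogen-primed oviduct. Dcpp1, Dcpp2 and Dcpp3 encode demilune cell and parotid proteins, small secreted proteins with a jacalin-like lectin domain that are best known from the salivary glands and have also been described in the oviduct. BC048546 belongs to the alpha-2-macroglobulin family, secreted proteins that trap proteases. The oviduct opens into the tip of the uterine horn, and its lining holds 2 main cell types, secretory cells and cells with motile cilia.

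The mice were sexually mature young females of the CD-1 strain, either WT or homozygous for a Plag1 allele in which lacZ takes the place of the open reading frame. All of them, WT included, had received 5 IU of pregnant mare serum and, 2 days later, 5 IU of human chorionic gonadotropin, and were killed the next day. Each of 7 WT and 7 KO mice gave 3 tissues, namely an intact piece of horn (uterus), mucosa scraped off with a scalpel (endometrium) and the wall that was left (myometrium), so that there were 6 groups of 7 mice. The assay was STRT RNA-seq, which reads the 5′ ends of polyadenylated transcripts and counts molecules by unique identifiers.

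The 45 libraries held 256298 to 1222627 gene counts each, and a floor of 3 counts, below which a level was treated as undetectable, corresponded to 2.45 to 11.7 CPM. Repeat libraries of a mouse were summed, which left 42 samples. Plag1 gave at most 1 count in any sample, with 2 counts in the 21 WT samples and 5 in the 21 KO samples. A 5′ tag may lie outside the replaced reading frame, so this was no check of the genotype labels. A layer score, the mean log2(CPM + 1) of 4 epithelial keratin and adhesion genes minus that of 4 smooth muscle genes, ran from -3.86 to 3.56 in the 14 endometria and from -8.40 to -4.23 in the 14 myometria, and the score of WT mouse 8 endometrium was 0.0098.

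The positions of the genes bear on how their tags can be told apart. In the mm9 build (GENCODE vM1 models) Ovgp1 lies on chr3:105776629-105790341 on the plus strand and overlaps Wdr77, a methylosome subunit gene transcribed in the same direction. BC048546 lies on chr6:128489840-128531624 on the minus strand and overlaps no other gene. The Dcpp genes are neighbours on the plus strand of chromosome 17, with Dcpp1 at chr17:24017843-24019820, Dcpp2 at chr17:24017848-24037754 and Dcpp3 at chr17:24054425-24056408. The Dcpp2 model begins just inside Dcpp1 and covers the rest of it, whereas the Dcpp2 transcript used here begins near the far end of the model.

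The windows at the annotated starts are shown because STRT tags lie at the 5′ end and because the 3 Dcpp copies are alike there. Each runs from 60 bases before the start through 20 bases after it in mm9, with the motif TATAA in capitals.
Ovgp1, chr3:105776569-105776648, plus strand: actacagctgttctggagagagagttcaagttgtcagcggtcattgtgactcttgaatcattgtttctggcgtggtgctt
Dcpp1, chr17:24017783-24017862, plus strand: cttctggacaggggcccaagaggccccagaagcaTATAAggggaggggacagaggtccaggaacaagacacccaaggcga
Dcpp2, chr17:24035629-24035708, plus strand: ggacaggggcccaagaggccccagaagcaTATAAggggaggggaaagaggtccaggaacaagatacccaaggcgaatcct
Dcpp3, chr17:24054365-24054444, plus strand: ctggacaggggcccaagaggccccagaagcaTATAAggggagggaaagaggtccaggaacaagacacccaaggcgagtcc
The letters TATAA occurred in the 3 Dcpp windows, with their first base at -26, -31 and -29 from the annotated start of Dcpp1, Dcpp2 and Dcpp3, and did not occur in the Ovgp1 window. Among 32851 mouse promoters of RefSeq (GRCm38.p6), 5.57% held TATAA on the sense strand of the same 60 bases and 7.24% on either strand. A match of letters is a description of the window only. The next 3 lines give the first 60 coding bases of the same transcripts, with the positions at which the copies differ in capitals.
Dcpp1: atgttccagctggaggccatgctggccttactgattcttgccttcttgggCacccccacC
Dcpp2: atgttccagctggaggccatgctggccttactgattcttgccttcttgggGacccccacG
Dcpp3: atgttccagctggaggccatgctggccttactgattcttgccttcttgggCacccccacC
Only 2 of these 60 bases varied, and Dcpp1 and Dcpp3 read the same throughout. Over whole coding sequences Dcpp1 and Dcpp2 were 93.8% identical, Dcpp1 and Dcpp3 93.2%, and Dcpp2 and Dcpp3 95.3%. The first 30 bases of the Dcpp1 and Dcpp3 transcripts each occurred exactly once in the mm9 genome, and those of Dcpp2 run across an exon junction. How reads that fit several copies were assigned is not given in the sources used here, so the split of counts among Dcpp1, Dcpp2 and Dcpp3 is uncertain, and their sum is the firmer quantity.

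Ovgp1 had 5563 counts in all, of which 3956, or 71.1%, came from the endometrium library of WT mouse 8. The next highest library, the endometrium of KO mouse 9, held 264. At least 1 Ovgp1 count was present in 42 of the 45 libraries, so the gene was detected widely, with most of its counts in a single library. There it was the 18th most abundant gene, with 0.612% of the library's gene counts, whereas it ranked 1394th in the uterus and 2754th in the myometrium of the same mouse. Wdr77, the gene that overlaps Ovgp1, stood at 14.0 CPM in WT mouse 8 endometrium, inside its range of 5.44 to 26.4 CPM in the other 13 endometria.

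In WT endometrium the Ovgp1 level was lowest at 7.49 CPM in mouse 5, had a median of 73.6 CPM and reached 5051 CPM in mouse 8, with a mean of 776 ± 1886 CPM (SD, n = 7). Without mouse 8 the mean was 63.5 ± 31.6 CPM (n = 6), with a highest value of 103 CPM in mouse 1. The group mean was thus set by 1 of 7 mice. In KO endometrium the lowest value was 10.4 CPM in mouse 13, the median 81.7 CPM and the highest 478 CPM in mouse 9, with a mean of 166 ± 169 CPM (n = 7). KO mice 9, 4 and 2, at 478, 300.4 and 179 CPM, exceeded every WT mouse but mouse 8.

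In WT uterus Ovgp1 ran from 1.08 CPM in mouse 10 through a median of 45.9 CPM to 86.2 CPM in mouse 7, with a mean of 45.01 ± 36.8 CPM (n = 7). In KO uterus it ran from 3.64 through 10.6 to 20.8 CPM, with a mean of 12.1 ± 6.88 CPM (n = 7). WT mice 1, 7, 8 and 12 lay above every KO mouse. WT mouse 10 held 1 count, under its floor of 3.09 CPM, and the lowest KO mouse, mouse 4, held 3 counts. The order of these 2 mice is thus not firm. In myometrium the values went from 0 through 9.96 to 31.5 CPM in WT (mean 11.5 ± 11.8 CPM) and from 0 through 11.7 to 120 CPM in KO (mean 26.2 ± 42.5 CPM), with n = 7 each. The mice at 0 were WT mice 3 and 5 and KO mouse 13, with floors of 6.47, 5.63 and 6.41 CPM. A level under the floor was not detectable in them at this depth. By median the order of the 6 groups was KO endometrium, WT endometrium, WT uterus, KO myometrium, KO uterus and WT myometrium, and every neighbouring pair in that order overlapped in range. In bulk tissue, fewer cells of a type and less RNA per cell cannot be told apart.

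**Figure D1:**
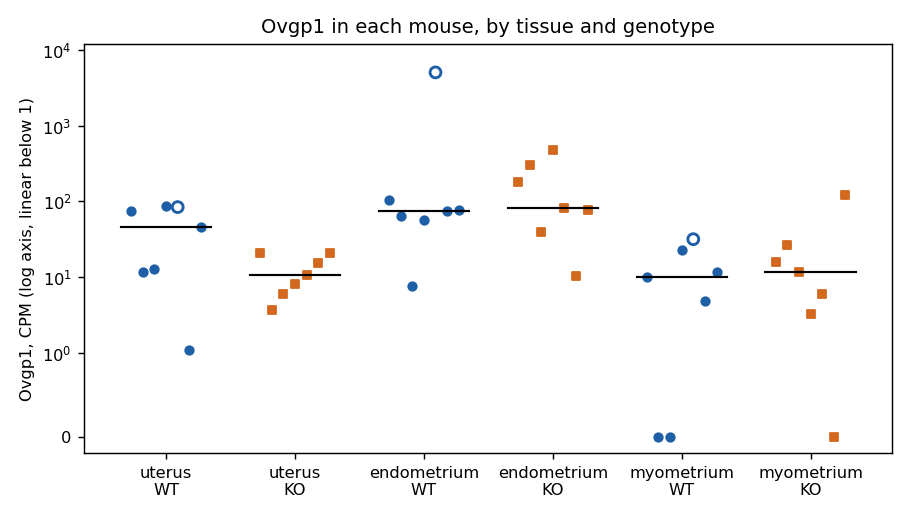
Ovgp1 level (CPM, log axis that is linear below 1) in each of 7 mice for every tissue and genotype; circles are WT, squares KO, the open circle is WT mouse 8 and the bar is the median. WT mouse 8 endometrium stands at 5051 CPM, and no other sample exceeds 478 CPM.

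Within mice, the labels tie the 3 tissues together. Ovgp1 was higher in endometrium than in myometrium in 7 of 7 WT mice and 6 of 7 KO mice. Among all genes that passed the filter, 4.9% were higher in endometrium in 7 of 7 WT mice and 19.7% in at least 6 of 7 KO mice. The exception was KO mouse 14, with 76.1 CPM in endometrium and 120 CPM in myometrium. Its myometrium had a layer score of -7.50, within the range of the other myometria. The cause of its Ovgp1 level was not tested. Against the intact horn, endometrium was higher in 5 of 7 WT and 6 of 7 KO mice.

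The per-mouse difference between endometrium and myometrium on the log2(CPM + 1) scale ran from 1.30 through a median of 3.25 to 7.28 in WT, the highest being mouse 8, and from -0.65 through 3.46 to 6.81 in KO. The edgeR model gave a log2 difference of 6.09 ± 1.11 (SE) in WT with samples unpaired and 3.93 once mouse entered as a replicate block. Without mouse 8 the unpaired WT value was 2.91, and in KO it was 2.62 ± 0.71, or 2.89 with the block. Since the members were selected on this contrast, these values are given without a test. The mice did not stand in the same order in all 3 tissues, as the lines of single mice crossed. WT mouse 8 was highest of the WT mice in myometrium too, and in uterus it was below mouse 7 alone, at 83.7 against 86.2 CPM. KO mouse 9, the highest KO endometrium, had 8.13 CPM in uterus and 3.27 CPM in myometrium. The myometrium value is 1 count, under the floor of 9.68 CPM of that library.

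**Figure D2:**
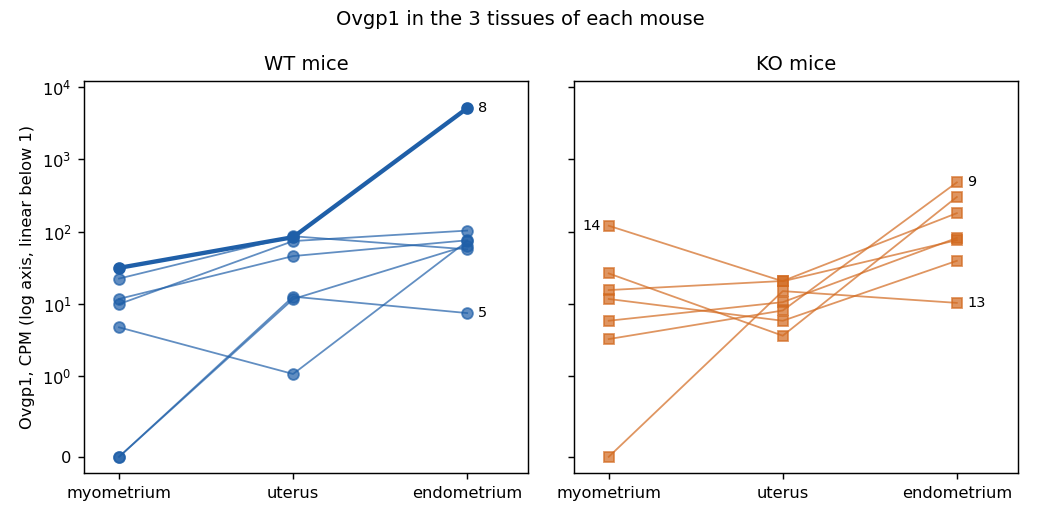
Ovgp1 level (CPM, log axis that is linear below 1) in myometrium, uterus and endometrium, with 1 line per mouse and WT and KO mice apart; numbers name mice 5, 8, 9, 13 and 14. The line of WT mouse 8 rises from 31.5 to 5051 CPM, and that of KO mouse 14 starts highest among myometria at 120 CPM.

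Dcpp1, the most abundant Dcpp gene, had 555 counts in all, and 546 of them, or 98.4%, were in WT mouse 8 endometrium. There it stood at 697 CPM and was the 175th most abundant gene. The other 9 counts lay in the myometrium of WT mouse 8 with 4, the myometrium of WT mouse 7 with 2, the uterus of KO mouse 13 with 2 and the uterus of KO mouse 14 with 1. No other endometrium held a Dcpp1 count. Dcpp2 had 38 counts and Dcpp3 had 3, and all of them were in WT mouse 8 endometrium, at 48.5 and 3.83 CPM. The split among the 3 copies carries the uncertainty stated above. The uterus of WT mouse 8 held none of the 3.

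BC048546 had 139 counts, of which 98, or 70.5%, were in WT mouse 8 endometrium, at 125 CPM. The next library was the uterus of the same mouse with 17 counts, or 19.8 CPM, and 15 libraries held at least 1 count. In WT uterus the 7 mice gave 0, 2, 4, 2, 17, 0 and 2 counts in the order of mice 1, 3, 5, 7, 8, 10 and 12. In KO uterus and in KO myometrium all 7 mice were at 0. In endometrium apart from mouse 8 no mouse exceeded 3 counts, with a mean of 1.67 ± 1.56 CPM in WT (n = 6) and 0.704 ± 1.05 CPM in KO (n = 7).

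**Figure D3:**
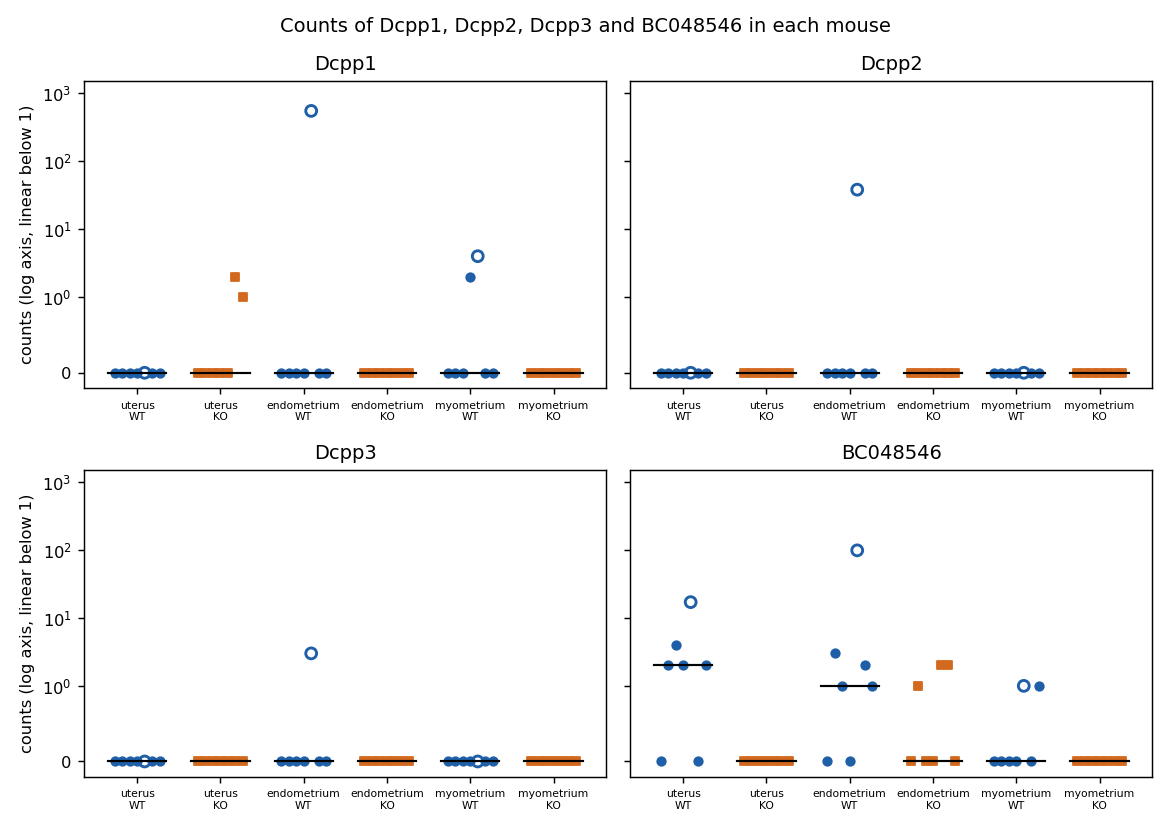
Counts of Dcpp1, Dcpp2, Dcpp3 and BC048546 (log axis that is linear below 1) in each mouse of the 6 groups; circles are WT, squares KO, the open circle is WT mouse 8 and the bar is the median. Dcpp1 reaches 546 and BC048546 98 counts in WT mouse 8 endometrium, and BC048546 in WT mouse 8 uterus reaches 17.

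Together the 5 genes made up 4641 counts, or 0.718% of the gene counts, of WT mouse 8 endometrium. Dcpp1 was 12.1% of the sum of Dcpp1 and Ovgp1 in that library (546 of 4502 counts, exact 95% interval 11.2 to 13.1%). In the other 13 endometria together it was 0 of 1083 (0 to 0.340%). In the endometrium of KO mouse 9, which had the next highest Ovgp1 level, it was 0 of 264 (0 to 1.39%). The members were chosen on counts in scraped endometrium, and 98.4% of the Dcpp1 counts lay in that of WT mouse 8. A lower share in the other endometria follows from this, so these shares are a description. In the myometrium of WT mouse 8 the share was 20% (4 of 20 counts, 5.73 to 43.7%), an interval that includes the 12.1% of its endometrium. The myometrium of WT mouse 7 held 2 Dcpp1 and 11 Ovgp1 counts.

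For BC048546 the share of the sum with Ovgp1 was 2.42% (1.97 to 2.94%) in WT mouse 8 endometrium and 1.10% (0.57 to 1.91%) in the other 13 endometria together. In the uterus of WT mouse 8 it was 19.1% (17 of 89 counts, 11.5 to 28.8%), and Dcpp1 there was 0 of 72. BC048546 therefore ran at a higher ratio to Ovgp1 in the intact horn than in the scraping of the same animal. These intervals cover counting error only and describe these libraries, not the groups.

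Libraries labelled with the same mouse and tissue showed the spread at low counts. Their titles do not say whether they came from the same RNA. The 3 endometrium libraries of KO mouse 13 held 6, 3 and 16 Ovgp1 counts and 0, 0 and 2 BC048546 counts, and the 2 myometrium libraries of WT mouse 12 held 9 and 4 Ovgp1 counts and 1 and 0 BC048546 counts. None of these libraries held a Dcpp count. WT mouse 8 endometrium was sequenced as 1 library, so its values had no repeat.

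Other genes were compared in that library through lists of cell type markers. Of 12 genes of motile cilia, 8 had their highest level of all 42 samples in WT mouse 8 endometrium. Among the 11995 genes with at least 50 counts over all libraries, 3.17% had their highest level there. Dnah5, Dnaic1, Tekt1, Ccdc39, Spag6 and Hydin fell under that cut, with 10 to 32 counts in all. The share is thus not over genes like all of the 12. Foxj1, the master regulator of motile cilia, stood at 60.02 CPM against at most 7.59 CPM in the other samples. Dynlrb2, a dynein light chain, stood at 114 CPM against at most 5.91 CPM, and Dnali1, an axonemal dynein chain, at 109 CPM against at most 3.91 CPM. Fam183b reached 176 CPM against at most 3.94 CPM. The others among the 8 were Dnaic1, Tekt1, Rsph1 and Spag6, of which Rsph1 was closest to the rest, at 40.9 CPM against at most 35.7 CPM. Ccdc39, Hydin and Tppp3 were not highest there, and Dnah5 was at 0.

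The summed level of the cilia list was 678 CPM in WT mouse 8 endometrium and 22.5 to 261 CPM in the other 13 endometria. It ranged from 56.3 to 122 CPM in WT uterus, from 52.8 to 309 CPM in KO uterus, from 69.0 to 166 CPM in WT myometrium and from 68.5 to 251 CPM in KO myometrium. Tppp3, a tubulin-associated gene, was the list's most abundant gene elsewhere and reached 301 CPM. The part of ciliated cells in the levels of the 5 genes was not tested.

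**Figure D4:**
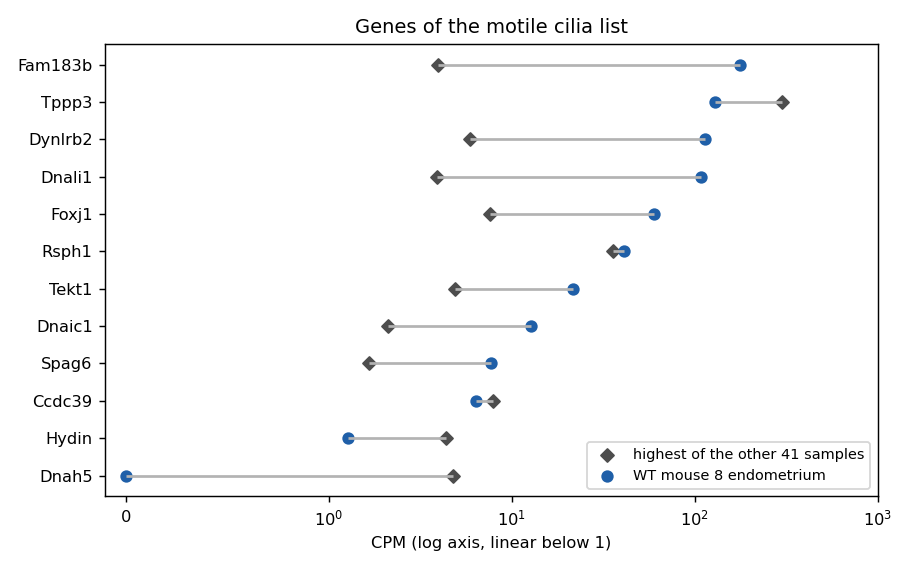
Level (CPM, log axis that is linear below 1) of the 12 motile cilia genes in WT mouse 8 endometrium (circles) and the highest level among the other 41 samples (diamonds), joined by a line for each gene. For 8 of 12 genes the circle lies to the right, by the widest distance for Fam183b at 176 against 3.94 CPM.

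The remaining lists did not stand apart in that library in the same way. Of 7 oviduct epithelium genes other than the 5 members, 6 were in the table, and their summed level of 140 CPM was the 4th of 14 endometria, within the range of 59.2 to 356 CPM of the others. Several genes of this list are also made in uterus, and Pax8 had a median of 49.4 CPM in the other 13 endometria. The sum therefore does not tell oviduct from uterine epithelium. Pax8, a factor of Müllerian duct epithelium, led that list at 77.9 CPM and reached 305 CPM in another endometrium, and Dmbt1 was at 0. Wt1 was highest of the 14 endometria there, at 23.0 CPM against at most 17.9 CPM in the others. Sox17 at 19.2 CPM, Muc4 at 12.8 CPM and Pax2 at 7.66 CPM lay within the range of the other endometria. Uterine gland genes summed to 7018 CPM, 3rd of 14, led by the protease gene Prss29 at 3819 CPM. Among them Foxa2, a transcription factor of gland cells, was highest of the 42 samples there, at 19.2 CPM. Epithelial genes of the layer score summed to 1488 CPM and smooth muscle genes to 1165 CPM, each 5th of 14, led by Krt18 and Acta2.

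Markers of ovary, cumulus, oocyte and salivary gland were read in the same way. Of 10 ovarian granulosa, theca and luteal genes, Fshr, Lhcgr, Amh, Cyp11a1 and Cyp19a1 were at 0, and the sum of 37.0 CPM, led by Foxl2 at 23.0 CPM, was 3rd of 14, within the 5.44 to 51.2 CPM of the other endometria. Inha, the inhibin alpha subunit of granulosa cells, was at 7.66 CPM (6 counts) and was highest of the 42 samples there, against at most 3.32 CPM elsewhere. The 5 cumulus genes summed to 8.94 CPM, with Ptx3, Has2 and Ereg at 0 and Tnfaip6 highest at 7.66 CPM. Of 8 oocyte genes 7 were at 0, including Gdf9, Bmp15 and Zp2, and Zp3 gave 1 count. The 8 salivary gland genes summed to 43.4 CPM, the lowest of 14 endometria, with 5 of 8 at 0, among them Bpifa2, Mucl2 and Smr3a, and Aqp5, a water channel, highest at 37.03 CPM. The part of these cell types in the levels of the 5 genes was not tested.

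Lists of relatives of the members by sequence family were summed in the same library, and no sum exceeded the range of the other endometria. The 7 glycosyl hydrolase family 18 relatives of Ovgp1 summed to 147 CPM, 4th of 14, within the 36.1 to 249 CPM of the other 13 endometria. Chil1 led that list at 93.2 CPM (73 counts), above its median of 7.25 CPM in those endometria and below their highest, 156 CPM. Zg16, a lectin related to the Dcpp genes, was at 0 in all 14 endometria. Of 6 alpha-2-macroglobulin family genes 5 were in the table, and they summed to 5.11 CPM, led by Mug1 at 3.83 CPM, against 2.50 to 21.6 CPM elsewhere in endometrium.

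Genes with a pattern most like that of the members were ranked by Pearson's r of log2(CPM + 1) over the 42 samples, which include 3 tissues of each mouse, among 11992 genes. For Ovgp1 the leading genes were Cldn22, a claudin of tight junctions (r = 0.70, Spearman's rho = 0.55), and 2300002M23Rik (r = 0.69), followed by Tgfbi, an extracellular matrix gene, Plxnb1, a semaphorin receptor, Gna14, Cmtm8, Hdc, histidine decarboxylase, and Cbs, cystathionine beta-synthase (r = 0.63 to 0.65). Without WT mouse 8 endometrium the r of these 8 genes was 0.55 to 0.64, so their likeness to Ovgp1 did not rest on that sample alone. Cldn22 and 2300002M23Rik were both highest in WT mouse 8 endometrium, at 51.1 and 69.0 CPM, and at most 6.68 and 10.9 CPM in the other samples.

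For the summed level of Dcpp1, Dcpp2, Dcpp3 and BC048546 the leading genes were Timp4, a metalloproteinase inhibitor (r = 0.85), Tmem212 (r = 0.83), 1700001C02Rik, Ccdc153, Fam183b, Pip, Tctex1d4 and Dnali1 (r = 0.70 to 0.77). Spearman's rho of Timp4 was 0.45, and without WT mouse 8 endometrium the r of the 8 genes was 0.05 to 0.54. Their likeness thus rested largely on 1 sample. Ccdc153 stood at 198 CPM there and Timp4 at 66.4 CPM, against at most 2.42 and 3.49 CPM in other samples. Pip, a secreted prolactin-induced protein, had 22 counts in WT mouse 8 endometrium and 25 counts in the uterus of the same mouse, which were its 2 highest samples.

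Whether loss of Plag1 changed these genes was asked separately for the 3 tissues. In uterus, edgeR's quasi-likelihood test with Benjamini-Hochberg adjustment called 0 of 12959 genes (0%), with 731 genes (5.64%) at an unadjusted p under 0.05, and DESeq2 called 0. Ovgp1 and BC048546 were the 2 members that passed the filter on low values in this comparison. The log2 difference of Ovgp1, KO minus WT, was -1.87 ± 0.58 (SE) with an edgeR adjusted p = 0.613, and it stayed between -2.07 and -1.62 when each mouse was left out. An exact permutation test of the mean log2(CPM + 1) over the 3432 splits of 14 mice gave p = 0.168. Neither test passed its threshold.

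The labels give each library a code of a letter and a number, grouped here by letter into rows A to C and rows D to F. What these blocks stand for is not given in the labels. The direction of the Ovgp1 difference in uterus was the same in rows A to C and opposite in rows D to F, which held 2 WT mice. In rows A to C the mean log2(CPM + 1) was 5.30 ± 1.45 in 5 WT mice and 3.15 ± 1.16 in 3 KO mice, and in rows D to F it was 3.30 ± 3.18 in 2 WT mice and 3.79 ± 0.54 in 4 KO mice. With these row blocks as a term the log2 difference was -1.70, with an edgeR adjusted p = 0.838.

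BC048546 in uterus had 27 counts over the WT mice, or 3.71 CPM of the pooled libraries, and 0 in 5653003 pooled KO counts, which allows up to 0.531 CPM. Without mouse 8 the WT libraries held 10 counts, or 1.58 CPM. The edgeR adjusted p was 0.612. The gene passed the filter through the WT group alone, and it no longer passed it when WT mouse 3, 5, 7, 8 or 12 was left out. The difference did not pass the test across all genes.

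In endometrium edgeR called 0 of 13004 genes (0%), with 676 (5.2%) at an unadjusted p under 0.05, and DESeq2 called 1 gene (0.00769%), which was not a member. This comparison includes the library on which the members were chosen, so its member values are a description. The log2 difference of Ovgp1, KO minus WT, was -2.23 ± 1.02 with WT mouse 8 and 1.40 ± 0.60 without it, and the edgeR adjusted p without it was 0.894. The direction of the Ovgp1 difference in endometrium was thus set by 1 mouse. For BC048546 the values were -4.53 with and -1.13 without mouse 8, the latter with an edgeR adjusted p = 0.962. The Dcpp genes did not pass the filter in any tissue. A single fit of all 6 groups, with its own filter, called 7 of 14822 genes (0.0472%) between genotypes in endometrium, and Dcpp1 was 1 of them, its endometrium counts all from WT mouse 8.

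In myometrium edgeR called 0 of 12991 genes (0%), with 548 (4.22%) at an unadjusted p under 0.05, and DESeq2 called 0. Ovgp1, the only member that passed the filter there, had a log2 difference of 1.24 ± 0.65 and an edgeR adjusted p = 1.00. Without KO mouse 14, whose myometrium held 70 Ovgp1 counts, the difference was -0.0069. Since no gene passed the edgeR threshold in any tissue, none of the genes in the marker and family lists did either.

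**Figure D5:**
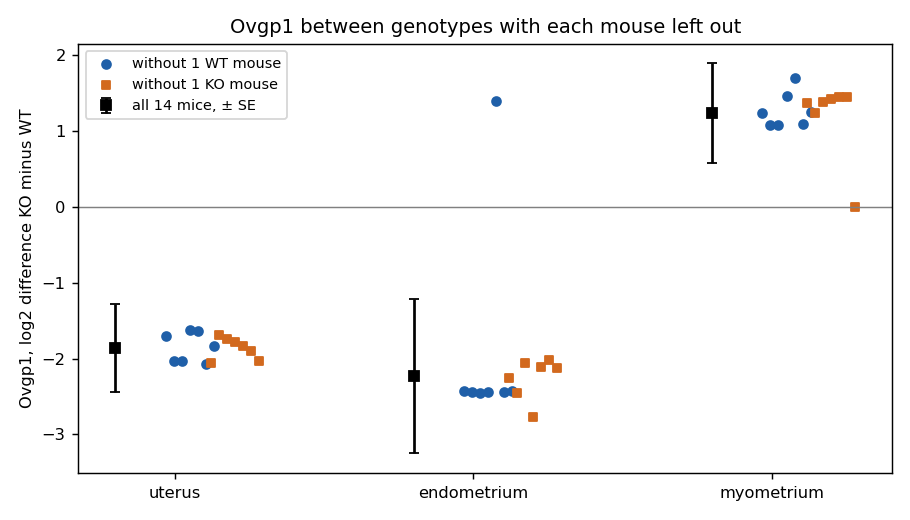
Log2 difference of Ovgp1, KO minus WT, by edgeR in the 3 tissues; black squares with bars are the fit of all 14 mice ± SE, circles the fits without 1 WT mouse and orange squares those without 1 KO mouse. In endometrium the fit without WT mouse 8 lies at 1.40 while the others lie between -2.77 and -2.02, and in myometrium the fit without KO mouse 14 lies near 0.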

How the data were processed

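The authors deposited a table of raw counts, whole numbers with no scaling, with 24422 gene symbols and 92 ERCC spike-ins in 45 libraries. Per the labels and the study's methods, reads were joined by molecular identifier and aligned to mm9. The labels name HTSeq for counting and the methods name Homer, and the use of strand is not given in the sources used here. Groups came from the labelled tissue, genotype and mouse. Counts of repeat libraries were summed to 42 samples. CPM are counts scaled to a common library size with TMM factors. Testing kept genes that reached 1 CPM in 5 or more samples of a fit and was done with edgeR 4.0.16 in R 4.3.3 (quasi-likelihood F test, no covariate) at an adjusted p of 0.05, with DESeq2 1.42.0 as an alternative. Permutation tests were exact and two-sided. Tissues share mice by the labelled mouse number. Deviations from group means correlated at a mean of 0.086 (WT) and 0.128 (KO) between tissues of a mouse, against -0.0146 and -0.0212 between mice. P-values measure the spread between mice. Likeness genes were the 8 of highest r among genes with at least 50 counts, and marker genes were named from lists of 8 or fewer or where they led their list; others named in the cilia and ovarian lists were chosen after their values were seen. The members and lists were chosen with earlier results of these data known.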

Additional observations from a re-analysis of the deposited data

Results flagged for a closer look

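In 18 sets of 7 mice, each a member in a tissue and genotype with at least 3 counts in some sample, or the summed motile cilia list, the gap between the most distant mouse and its nearest neighbour was set against the range of the group on the log2(CPM + 1) scale. The gap exceeded Dixon's critical value for 7 samples in 6 sets, and in all 6 the distant sample was WT mouse 8 endometrium. The 6 sets share that library, on whose counts the members were chosen, so the gaps are a description. The gap was 0.608 of the range for Ovgp1 (5051 CPM), 0.671 for BC048546 (125 CPM) and 0.594 for the motile cilia list (678 CPM). It was 1.0 of the range for Dcpp1 (697 CPM), Dcpp2 (48.5 CPM) and Dcpp3 (3.83 CPM), since the other 6 WT mice were at 0. Dcpp3 rests on 3 counts.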

How the results depend on the processing

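The count of members past the threshold between genotypes was 0 in each tissue. The main fits tested 2 members in uterus, 2 in endometrium and 1 in myometrium. They called 0% of the 12959, 13004 and 12991 genes tested, so a member count of 0 does not set the members apart. No other fit of a single tissue called more than 3 genes (3 of 15836, myometrium without a filter). The member count was also 0 with DESeq2, other scaling, other filters and first libraries only. The same held with the row blocks as a term, at an adjusted p of 0.1 and with each mouse left out (range 0 to 0). With all 6 groups in a single fit the count was 1 in endometrium, among 7 of 14822 genes called. The member was Dcpp1, with a log2 difference, KO minus WT, of -9.25. All its endometrium counts came from WT mouse 8, in the library on which the members were chosen, so this call is a description. That fit also took the 3 tissues of a mouse as separate samples. The Ovgp1 difference in endometrium turned to 1.27 with DESeq2 and to 1.40 without WT mouse 8 (-2.77 to 1.40 with each mouse left out). In myometrium it turned to -0.0069 without KO mouse 14 (-0.0069 to 1.70). DESeq2 ran with its default handling of outlying counts, and whether it replaced counts of WT mouse 8 was not recorded. The DESeq2 values and those without mouse 8 may therefore not be separate checks. Between endometrium and myometrium in WT, Ovgp1 was 2.37 with DESeq2 and 3.93 with mouse as a replicate block, and 2.91 to 6.50 with each mouse left out. That of BC048546 was 1.497 with DESeq2 and 2.23 without mouse 8. The block moved no KO value beyond the spread between mice. Group means without mouse 8 were added after seeing the data. Depth limits single counts, since 3 counts were 2.45 to 11.7 CPM.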
